A study of Mus musculus with 10 samples.

Results

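The genes described here are 10 genes of the adipose stroma: Thbs1, Thbs2, Postn, Sfrp4, Fbln1, Sparc, Tnc, Tgfbi, Ccn2 and Anxa1. They were taken by symbol from the 47937 genes listed in each library. They were chosen on measured values, because several of them differed between the genotypes in opposite directions on the 2 diets. Genotype differences of these 10 genes, and how those differences changed with diet, are therefore given as a description, and no p-value or call is printed for them.

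Matricellular proteins are secreted into the extracellular matrix, where they modulate how cells bind and signal to it rather than forming its fibres. In adipose tissue they are made largely by fibroblasts, progenitors and vessel-associated cells, and they are known from wound repair, fibrosis and the growth of fat depots. Thbs1, Thbs2, Postn, Sparc, Tnc and Ccn2 are classical members of this class. Fbln1 and Tgfbi encode matrix glycoproteins, Sfrp4 encodes a secreted Wnt antagonist, and Anxa1 encodes a calcium-dependent phospholipid-binding protein that is released from cells and dampens inflammation.

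Bulk mRNA-seq was made of visceral white adipose tissue (WAT) of C57BL/6 mice (C57BL/6J in the study's methods) that carried both copies (Mof+/+) or 1 copy (Mof+/-) of Mof, also named Kat8, which encodes a histone acetyltransferase. On standard diet (SD) there were 3 Mof+/+ and 3 Mof+/- libraries from mice of 8 weeks. On high-fat diet (HFD) there were 2 Mof+/+ and 2 Mof+/- libraries from mice of 27 weeks that had eaten it for 20 weeks, by the sample labels and the deposited design. The study's text gives another length of feeding and other ages for these mice. Diet and age cannot be told apart. The mutation was carried in every tissue of the animal, and nothing in the labels says how animals were assigned to litters, so p-values measure the spread between these libraries.

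Libraries held between 1044355 and 17171947 counts, and the smallest was the library labelled HFD Mof+/- replicate 1. Kat8 lay between 18.1 and 21.5 counts scaled to a library size of 1000000 (CPM) in the 5 Mof+/+ libraries and at 12.2, 18.8, 11.5, 20.1 and 10.5 CPM in the 5 labelled Mof+/-. It thus went against the label in the library labelled SD Mof+/- replicate 2, which lay within the range of the Mof+/+ libraries. The library labelled HFD Mof+/- replicate 1 lay in that range too, but its value came from 21 counts, which leave the level uncertain. Xist, the transcript of the inactive X chromosome, had 139, 46.1 and 58.0 CPM in the 3 libraries labelled SD Mof+/- and no counts in the other 7. Ddx3y, Eif2s3y, Kdm5d and Uty, which are Y-linked, were at 0 in those 3 libraries, and Ddx3y and Eif2s3y had counts in each of the others. The study's methods give male mice. On SD, sex as these genes show it and genotype cannot be told apart. The 16 skeletal muscle genes summed to 77084 and 1846 CPM in the HFD Mof+/- libraries and to at most 90.9 CPM elsewhere, and mitochondrial genes took 26.9% of the counts of the library labelled HFD Mof+/- replicate 1. The headings inside the files name the third SD libraries with the opposite genotype, and groups here follow the sample labels. Grouped by those headings, 7 of the 10 genes had smaller genotype differences on SD than those given below, with log2 values of 0.72 for Sfrp4, 0.74 for Thbs2, 0.70 for Fbln1, 1.03 for Thbs1, 0.46 for Postn, 0.41 for Anxa1 and -1.36 for Tnc. Those of Sparc (-0.53), Tgfbi (0.64) and Ccn2 (-1.18) were larger, and edgeR called 0 of all genes on SD in that grouping.

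The stretch before the transcription start is shown for 4 of the genes whose levels parted the groups most clearly and for which RefSeq gave a promoter, so that the letters in front of them can be read. Promoters were matched for 7 of the 10 genes. Each sequence is the 250 bases upstream of the RefSeq start (GRCm38.p6), written 5′ to 3′ along the strand of the gene, and capitals mark TATAAA or its reverse complement. They lie at chr3:54360857-54361106 on the plus strand for Postn, chr17:14694263-14694512 on the minus strand for Thbs2, chr15:85205699-85205948 on the plus strand for Fbln1 and chr19:20390672-20390921 on the minus strand for Anxa1.
Postn: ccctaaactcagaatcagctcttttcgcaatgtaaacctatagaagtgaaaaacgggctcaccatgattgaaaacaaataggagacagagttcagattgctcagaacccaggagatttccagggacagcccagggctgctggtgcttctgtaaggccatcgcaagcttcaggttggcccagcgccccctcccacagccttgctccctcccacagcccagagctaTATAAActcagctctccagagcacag
Thbs2: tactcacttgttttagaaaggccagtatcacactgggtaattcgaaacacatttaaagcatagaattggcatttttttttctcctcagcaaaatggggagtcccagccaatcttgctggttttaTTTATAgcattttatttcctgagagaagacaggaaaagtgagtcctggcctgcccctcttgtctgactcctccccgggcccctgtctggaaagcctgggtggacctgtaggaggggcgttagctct
Fbln1: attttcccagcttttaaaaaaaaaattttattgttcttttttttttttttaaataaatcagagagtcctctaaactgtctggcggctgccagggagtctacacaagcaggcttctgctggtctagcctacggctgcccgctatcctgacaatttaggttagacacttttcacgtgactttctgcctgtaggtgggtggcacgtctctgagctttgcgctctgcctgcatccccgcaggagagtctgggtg
Anxa1: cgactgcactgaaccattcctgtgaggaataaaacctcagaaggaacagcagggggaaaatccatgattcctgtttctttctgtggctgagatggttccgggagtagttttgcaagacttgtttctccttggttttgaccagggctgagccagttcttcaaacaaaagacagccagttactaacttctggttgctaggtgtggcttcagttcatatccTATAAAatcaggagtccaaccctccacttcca

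TATAAA on either strand was found in 4 of the 7 promoters, those of Thbs2, Postn, Tnc and Anxa1, and in 12.4% of 32851 promoters of the same length. In Postn it began 26 bases and in Anxa1 32 bases before the RefSeq start, while in Thbs2 it lay on the opposite strand. CAGAC, found in 42.2% of all promoters, was in those of Thbs2, Fbln1, Sparc and Tgfbi. GGGCGG (32.7% of all) was in those of Tnc and Tgfbi, AGAACA (16.1%) in those of Fbln1 and Sparc, GGTCA (35.2%) in those of Sparc and Anxa1, and CATTCC (12.6%) in that of Anxa1. Neither TGACTCA nor TGAGTCA (4.5%), nor the CArG box (1.5%), matched these letters in any of the 7 windows. All motifs were searched on both strands, and a match is a description of the letters only.

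The thrombospondins are multimeric glycoproteins that bind cell-surface receptors, and thrombospondin-1 also activates latent TGF-beta. Thbs1 (chr2:118111876-118127133, plus strand) was at 51.3, 29.6 and 54.9 CPM in SD Mof+/+ and at 195.7, 188.1 and 129.2 CPM in SD Mof+/-. HFD libraries held 98.6 and 70.7 CPM in Mof+/+ and 36.4 and 28.6 CPM in Mof+/-. The libraries of the genotypes did not overlap on either diet, and the Mof+/- libraries were the higher on SD and the lower on HFD. The log2 difference between Mof+/- and Mof+/+ was 2.27 (SE 0.30) on SD and -1.04 (SE 0.42) on HFD.

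Thbs2 (chr17:14665500-14694235, minus strand) was at 16.3, 21.8 and 21.6 CPM in SD Mof+/+ and at 98.2, 145.6 and 113.3 CPM in SD Mof+/-. On HFD the Mof+/+ libraries held 31.4 and 41.0 CPM and the Mof+/- libraries 43.1 and 50.4 CPM. Thbs2 was the 1 gene of the 10 whose Mof+/- libraries were also the higher on HFD. Its log2 difference was 2.94 (SE 0.27) on SD and 0.70 (SE 0.40) on HFD, so that the difference became smaller on HFD without turning.

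Periostin, encoded by Postn, binds collagen and integrins and takes part in collagen crosslinking. Postn (chr3:54361109-54391037, plus strand) was at 140.5, 82.0 and 105.8 CPM in SD Mof+/+ and at 248.8, 273.1 and 235.0 CPM in SD Mof+/-. On HFD it was at 175.3 and 245.1 CPM in Mof+/+ and at 44.0 and 80.6 CPM in Mof+/-. It followed the pattern of Thbs1, with no overlap between the genotypes on either diet. Its log2 difference was 1.56 (SE 0.26) on SD and -1.45 (SE 0.38) on HFD.

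Sfrp4 (chr13:19623104-19632994, plus strand) showed the widest contrast. It was at 1.53, 4.38 and 4.78 CPM in SD Mof+/+ and at 49.2, 71.2 and 63.9 CPM in SD Mof+/-. The HFD levels were 9.24 and 11.4 CPM in Mof+/+, and both Mof+/- libraries had 0 counts, which allows up to 2.87 and 0.542 CPM at 3 counts per library. The SD Mof+/- libraries were thus far above all others, and on HFD the gene was not detected in Mof+/-. The log2 difference on SD was 4.47 (SE 0.46). On HFD the level in Mof+/- was at least 6.03-fold lower than in Mof+/+ in CPM, and at least 4.84-fold lower in CPM scaled by the trimmed mean of M-values (TMM).

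Fibulin-1, encoded by Fbln1, binds fibronectin and basement membrane proteins. Fbln1 (chr15:85205949-85286535, plus strand) was at 56.5, 58.6 and 59.4 CPM in SD Mof+/+ and at 247.9, 228.6 and 206.9 CPM in SD Mof+/-. On HFD it was at 56.4 and 55.6 CPM in Mof+/+ and at 19.2 and 10.8 CPM in Mof+/-, from 20 and 60 counts. The Mof+/+ libraries of both diets lay close together, while the Mof+/- libraries lay above them on SD and below them on HFD. The log2 difference was 2.33 (SE 0.21) on SD and -1.57 (SE 0.57) on HFD.

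Anxa1 (chr19:20373428-20390944, minus strand) was at 271.9, 286.8 and 272.7 CPM in SD Mof+/+ and at 506.9, 488.9 and 411.3 CPM in SD Mof+/-. On HFD it was at 1491 and 1611 CPM in Mof+/+ and at 407.9 and 460.4 CPM in Mof+/-. Its highest group was therefore HFD Mof+/+, unlike Thbs1, Thbs2, Postn, Sfrp4 and Fbln1, whose highest group was SD Mof+/-. The log2 difference was 1.11 (SE 0.22) on SD and -1.51 (SE 0.42) on HFD.

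Tgfbi, induced by TGF-beta and able to bind integrins, was at 108.7, 98.8 and 146.7 CPM in SD Mof+/+ and at 160.3, 123.0 and 77.8 CPM in SD Mof+/-. HFD levels were 172.1 and 209.4 CPM in Mof+/+ and 33.5 and 88.8 CPM in Mof+/-. The genotypes overlapped on SD and parted on HFD, where Mof+/- was lower. The log2 difference was 0.38 (SE 0.29) on SD and -1.35 (SE 0.47) on HFD.

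Ccn2, also known as connective tissue growth factor, was at 88.4, 29.0 and 41.3 CPM in SD Mof+/+ and at 12.5, 13.5 and 33.9 CPM in SD Mof+/-. On HFD it was at 31.0 and 41.1 CPM in Mof+/+ and at 0 and 7.05 CPM in Mof+/-. The genotypes overlapped on SD, and on HFD both Mof+/- libraries were the lower. The log2 difference was -1.02 (SE 0.55) on SD and -2.93 (SE 1.37) on HFD, and the second value rests on 39 counts in 1 library and 0 in the other. The SD value moved to -0.42 without SD Mof+/+ replicate 1 and to -1.7 without SD Mof+/- replicate 3.

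Tenascin-C, encoded by Tnc, appears in remodelling tissue. Tnc was at 28.1, 19.2 and 12.8 CPM in SD Mof+/+ and at 2.33, 2.78 and 0.446 CPM in SD Mof+/-. HFD libraries held 23.1 and 30.6 CPM in Mof+/+ and 2.87 and 8.86 CPM in Mof+/-. It was lower in Mof+/- on both diets, with no overlap, by a log2 difference of -3.07 (SE 0.70) on SD and -1.86 (SE 0.90) on HFD. The library labelled SD Mof+/- replicate 3 and the library labelled HFD Mof+/- replicate 1 held 3 counts each.

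Sparc, or osteonectin, binds collagen and is a marker of adipose fibroblasts and endothelium. It was at 4614, 5137 and 3268 CPM in SD Mof+/+ and at 2045, 3095 and 2889 CPM in SD Mof+/-. HFD levels were 5926 and 4548 CPM in Mof+/+ and 1619 and 4862 CPM in Mof+/-. Its 2 HFD Mof+/- libraries lay further apart than any other group, and its log2 differences of -0.33 (SE 0.30) on SD and -0.42 (SE 0.91) on HFD were close to their errors. Sparc did not share the opposite directions for which the set was chosen. Per kilobase of exon it was the highest of the 10 genes in every group, at 1146 ± 255 CPM per kb (SD, n = 3) in SD Mof+/+, followed there by Anxa1 at 95.2 ± 2.88 and Tgfbi at 31.3 ± 6.72 CPM per kb. The libraries of Postn, at 12.6 ± 3.38 CPM per kb, lay on both sides of those of Fbln1, at 13.3 ± 0.346 CPM per kb, and Sfrp4 was the lowest of the 10 in that group at 0.853 ± 0.423 CPM per kb.

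**Figure D1:**
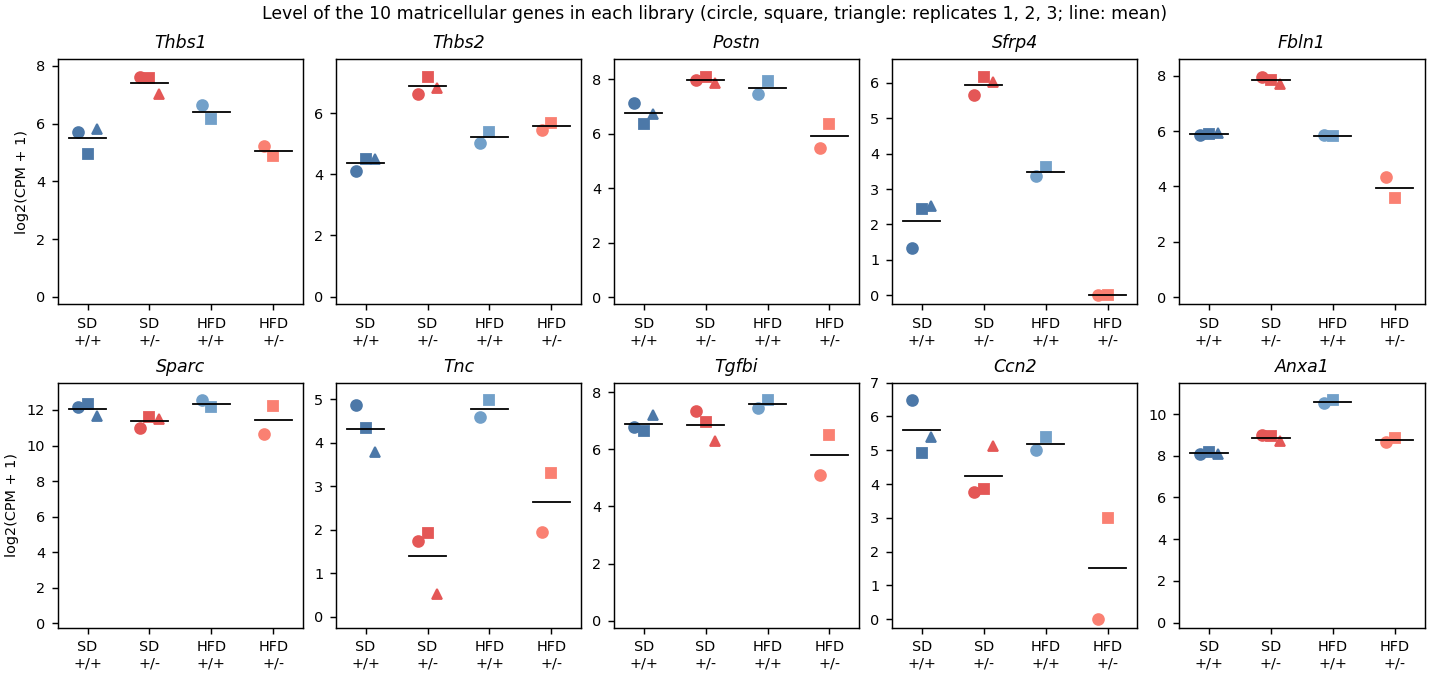
Level of each gene as log2(CPM + 1) in the 10 libraries, by diet and genotype (+/+ and +/- stand for Mof+/+ and Mof+/-); points are libraries and lines are means of the plotted values. Thbs1, Postn, Sfrp4, Fbln1 and Anxa1 are higher in Mof+/- than in Mof+/+ on SD and lower on HFD, while Tnc is lower in Mof+/- on both diets.

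Read over the set, 6 of the 10 genes lay higher in SD Mof+/- than in SD Mof+/+ without overlap (Thbs1, Thbs2, Postn, Sfrp4, Fbln1 and Anxa1), where 9.71% of the 13864 genes tested did so, and 2 lay lower (Sparc and Tnc), where 30.6% did. On HFD 1 of the 10 lay higher in Mof+/- (Thbs2; 8.82% of the 14120 genes tested) and 8 lay lower (45.6%). The combination of higher on SD and lower on HFD was met by 5 of the 10 genes and by 2.70% of the genes tested on both diets. These counts are what the set was chosen for, and nothing is read from them. In CPM scaled by TMM the counts were 6 higher (18.0% of all genes) and 1 lower (17.5%) on SD, since Sparc then overlapped, 1 higher (12.9%) and 8 lower (38.1%) on HFD, and 5 for the combination (4.14%).

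Differences of the 10 genes had a median log2 value of 1.34 on SD, where the median over all genes tested was -0.07, and of -1.48 on HFD, where it was -0.24. All 10 passed the filter on low counts in each comparison. Of all genes tested, 3.33% were called higher and 1.91% lower in Mof+/- on SD by edgeR's quasi-likelihood test at an adjusted p under 0.05. On HFD the same test called 0% (0 genes, with 1732 at an unadjusted p under 0.05 and 209 by DESeq2). The genes with the largest negative change of the genotype difference from SD to HFD were Sfrp4, at a log2 value of at most -6.70 in CPM, Fbln1 at -4.06 (SE 0.48), Thbs1 at -3.43 (SE 0.52), Postn at -3.10 (SE 0.48) and Anxa1 at -2.72 (SE 0.40). Thbs2 followed at -2.34 (SE 0.46), Ccn2 at -1.83 (SE 1.12) and Tgfbi at -1.81 (SE 0.56), while Sparc at -0.17 (SE 0.66) and Tnc at 1.15 (SE 1.09) were within or near their errors. Grouped by the column headings, the change was -0.16 for Thbs2, -2.41 for Fbln1, -2.20 for Thbs1, -2.01 for Postn and -2.03 for Anxa1, and Tnc (-0.56) and Sparc (0.02) had the opposite sign. Of all genes tested, edgeR's interaction test called 0.0881%. Its calls among the 10 genes are not given, since the genes were chosen on the same values.

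**Figure D2:**
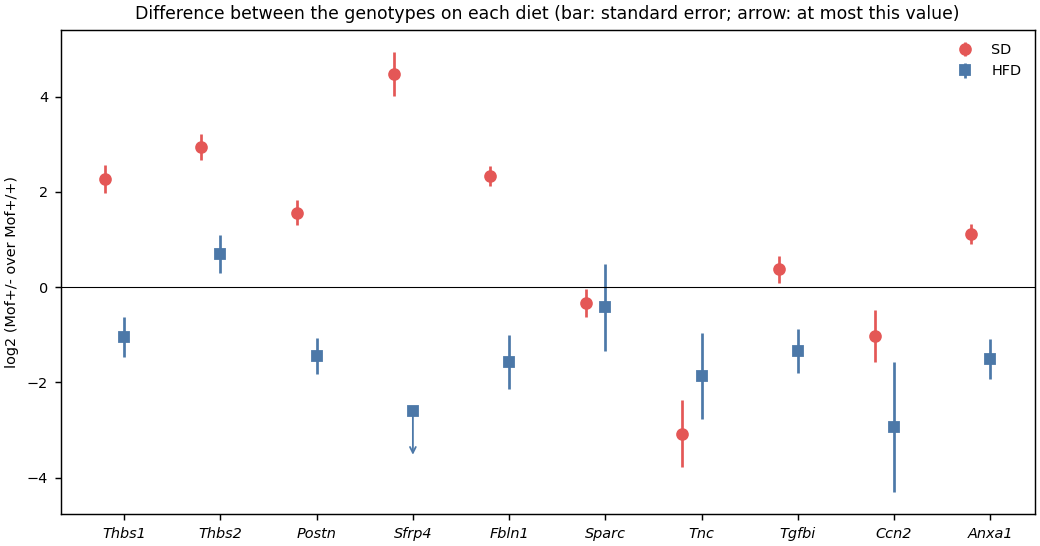
Log2 difference between Mof+/- and Mof+/+ for each gene on SD (circles, 3 against 3 libraries) and on HFD (squares, 2 against 2 libraries), with standard errors; the square of Sfrp4 on HFD is an upper limit, since both Mof+/- libraries had 0 counts. Thbs1, Postn, Sfrp4, Fbln1, Tgfbi and Anxa1 lie above 0 on SD and below 0 on HFD, while Sparc, Tnc and Ccn2 lie below 0 on both.

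The diet effect averaged over the genotypes was not the value used to choose the genes. It was tested on all 10 libraries with edgeR's quasi-likelihood test and Benjamini-Hochberg adjustment over 15897 genes. It shares those libraries with the genotype differences, and the groups differ in size and depth, so its calls are not independent of the choice. Of the 10 genes 1 rose and 2 fell, where 1.27% of all genes rose and 0.981% fell. Anxa1 rose on HFD by 1.23 on the log2 scale (SE 0.19, adjusted p = 0.00872). Fbln1 fell by 1.97 (SE 0.24, adjusted p = 0.00313). Sfrp4 fell, with an adjusted p = 0.00872, by at least 1.82 on the log2 scale in CPM when its 0 counts in HFD Mof+/- are set to 3 counts per library. These averages hide unequal parts, described next: Anxa1 differed between the diets mainly in Mof+/+ and Fbln1 mainly in Mof+/-, while Sfrp4 lay higher on HFD in Mof+/+ and lower in Mof+/-. Without HFD Mof+/+ replicate 2 the call of Anxa1 was lost (adjusted p = 0.0741 by edgeR), and with the SD libraries grouped by the column headings none of the 3 was called.

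None of the other 7 passed the threshold, with Thbs1 at -0.70 (SE 0.26, adjusted p = 0.197), Ccn2 at -1.36 (SE 0.58, adjusted p = 0.254) and Tnc at 1.10 (SE 0.54, adjusted p = 0.312) by edgeR. Across the 10 genes the median averaged difference was -0.35, beside -0.20 over all genes, and DESeq2 also called 3. Without the SD Mof+/- libraries, which alone held Xist, both HFD groups were set against SD Mof+/+ alone, so that this comparison also carries part of the genotype difference on HFD. In it Anxa1 was called (1.85, SE 0.23, adjusted p = 0.0263 by edgeR's quasi-likelihood test), while Fbln1 (-0.74, adjusted p = 0.197) and Sfrp4 (adjusted p = 0.239) were not. Thbs1, Thbs2, Postn, Tnc and Tgfbi had the opposite sign there.

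The diet difference within each genotype shares its libraries with the genotype differences and is given as a description. In Mof+/+, HFD libraries lay above all SD libraries for 6 of the 10 genes (Thbs1, Thbs2, Postn, Sfrp4, Tgfbi and Anxa1), beside 21.0% of all genes, and Fbln1 was lower in every HFD library by a small margin, beside 28.2% of all genes. Anxa1 stood out with a log2 difference of 2.61 (SE 0.18). Sfrp4 followed with 1.65 (SE 0.64), while Thbs1, Thbs2 and Postn lay between 0.99 and 1.07. Fbln1 differed by 0.07 (SE 0.17) after TMM scaling, with the opposite sign to its CPM values. With the SD libraries grouped by the column headings, the differences in Mof+/+ turned to -1.46 for Sfrp4, -0.70 for Thbs2 and -1.12 for Fbln1, and those of Thbs1 and Postn were 0.10 and 0.34, while Anxa1 was at 2.17.

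In Mof+/-, 6 of the 10 genes were lower on HFD without overlap (Thbs1, Thbs2, Postn, Sfrp4, Fbln1 and Ccn2), beside 17.7% of all genes. Tnc had no overlap in the other direction, beside 9.88% of all genes, where its lowest HFD value of 2.87 CPM came from 3 counts and the highest SD value was 2.78 CPM. Sfrp4 was at least 36.0-fold lower in CPM. Fbln1 differed by -3.94 (SE 0.52), Thbs1 by -2.38 (SE 0.45), Postn by -2.03 (SE 0.43) and Thbs2 by -1.35 (SE 0.42). Anxa1 differed by -0.11 (SE 0.41), so that its Mof+/- libraries lay between 407.9 and 506.9 CPM on both diets. The SD Mof+/- libraries held Xist and no Y-linked counts, while the HFD Mof+/- libraries held Y-linked counts, no Xist and high muscle sums. In Mof+/-, diet thus cannot be told apart from sex as these genes show it, or from muscle content.

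**Figure D3:**
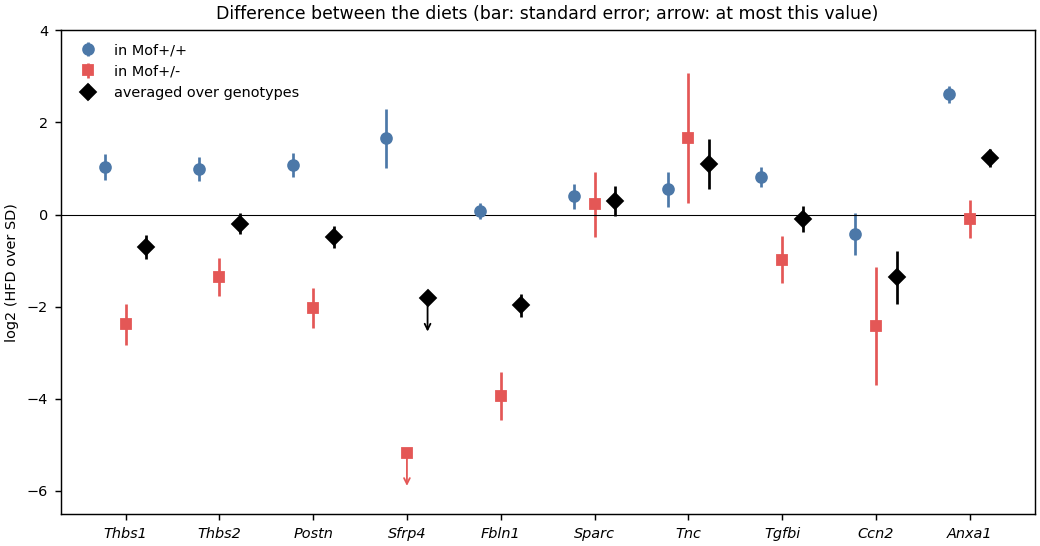
Log2 difference between HFD and SD for each gene in Mof+/+ (circles), in Mof+/- (squares) and averaged over the genotypes (diamonds), with standard errors; arrows mark upper limits for Sfrp4. Thbs1, Thbs2, Postn, Sfrp4, Fbln1, Tgfbi and Anxa1 lie above 0 in Mof+/+ and below 0 in Mof+/-. Fbln1 is within its error of 0 in Mof+/+, and Anxa1 is within its error of 0 in Mof+/-.

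The 10 genes did not vary as 1 group. Z-scores of TMM-scaled log2 CPM over the 10 libraries were compared by their root mean square difference, for which 0 means the same profile. The closest pair was Sfrp4 and Fbln1 at 0.262, and the farthest was Thbs2 and Tnc at 1.82. The HFD Mof+/- values of Sfrp4 in this comparison stand for 0 counts and differ only by library size. Postn lay closest to the mean profile of the 10 genes (0.464) and Tnc farthest from it (1.16), followed by Sparc (0.955). That mean profile was between 0.399 and 0.603 in the SD Mof+/- and HFD Mof+/+ libraries and between -1.05 and -0.202 in the others. Outside the set, the 5 most alike of 11298 genes compared were Mesd (0.427), Ccdc122 (0.444), Ifi211 (0.457), Ccdc34 (0.458) and Nars (0.460).

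**Figure D4:**
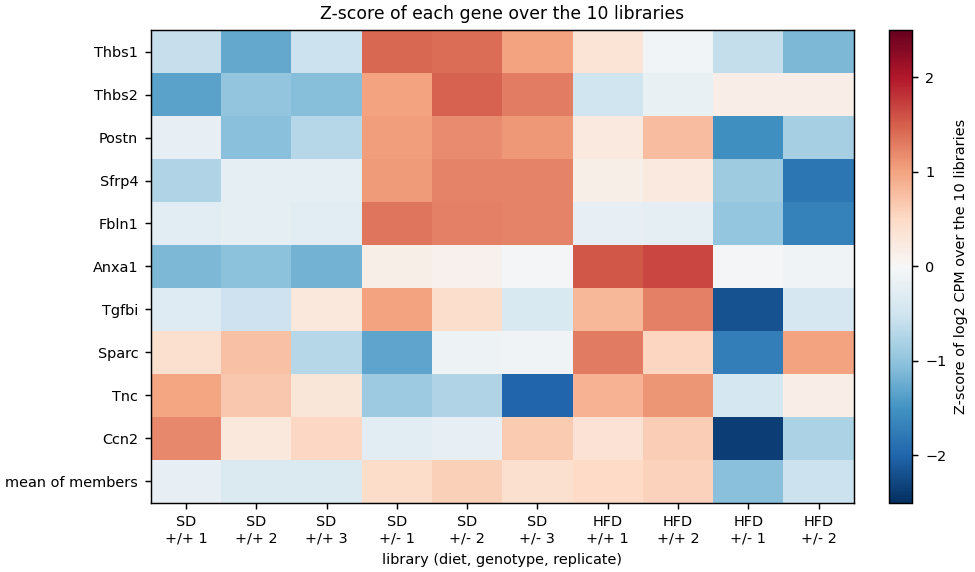
Z-score of TMM-scaled log2 CPM (prior count of 1) of each gene in the 10 libraries, with the mean of the 10 genes in the last line. Thbs1 to Fbln1 are highest in SD Mof+/-, Anxa1 is highest in HFD Mof+/+, and the library labelled HFD Mof+/- replicate 1 is low for Postn, Tgfbi, Sparc and Ccn2; the 2 HFD Mof+/- values of Sfrp4 both stand for 0 counts and differ by library size.

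Relatives of the 10 genes were read from 4 lists with 89 different genes, Stab1 standing in 2 of them: 37 other matricellular and related secreted genes, 22 receptors and Wnt partners, 22 genes of TGF-beta signalling and 9 interstitial collagens. On SD, 5 of the 80 relatives tested were higher and 2 lower in Mof+/- by edgeR's quasi-likelihood test with Benjamini-Hochberg adjustment over all genes. Ccn1, a close relative of Ccn2 and an immediate-early gene, rose by 2.65 on the log2 scale (SE 0.33, adjusted p = 0.0122) from 46.1 ± 9.69 to 222.7 ± 67.5 CPM (SD, n = 3), whereas Ccn2 was lower in 2 of the 3 SD Mof+/- libraries than in any SD Mof+/+ library. Efemp1, also called fibulin-3, rose by 2.15 (SE 0.22, adjusted p = 0.00606), as its relative Fbln1 was higher. Of the Wnt antagonists related to Sfrp4, Sfrp2 rose by 1.62 (adjusted p = 0.0301) and Sfrp1 fell by 1.57 (adjusted p = 0.0486). Fzd2, a Wnt receptor, rose by 3.08 (adjusted p = 0.0227).

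Eng, a TGF-beta co-receptor of endothelium, fell by 1.85 (adjusted p = 0.0375). With each of the 6 SD libraries left out in turn, Sfrp1 and Eng lost their call in all 6, Sfrp2 and Fzd2 in 4, and Ccn1 and Efemp1 in 2, where the largest adjusted p was 0.0862 for Ccn1 and 0.0712 for Efemp1 by edgeR. With all 10 libraries in 1 fit Sfrp1, Sfrp2, Fzd2 and Eng lost their call, and under the length correction Sfrp1 and Sfrp2 did. The length correction also lowered Ccn1 to 1.97 and Efemp1 to 1.53, both still called. With the replicate block Sfrp1 and Eng lost their call, with DESeq2's size factors Sfrp1, and under the column headings all 6. On HFD edgeR called none of the 77 relatives tested (8 at an unadjusted p under 0.05, 1 by DESeq2), and the interaction test called none of 83 (18 unadjusted, 9 by DESeq2). The median change of the genotype difference from SD to HFD was -0.76 over these relatives and -0.41 over all genes, beside -2.53 over the 10 chosen genes.

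In the averaged diet test, 3 relatives were higher and 4 lower on HFD of the 83 tested. Sfrp5, an adipose Wnt antagonist, rose by 2.96 (SE 0.63, adjusted p = 0.0373), Ccn5 by 2.73 (SE 0.55, adjusted p = 0.0288) and Anxa4, an annexin as Anxa1 is, by 0.86 (SE 0.19, adjusted p = 0.0455). Sfrp2 fell by 2.52 (SE 0.44, adjusted p = 0.0153) and the proteoglycan gene Spock2 fell by 3.20 (SE 0.61, adjusted p = 0.0229), both with 0 counts in 1 HFD Mof+/- library. Ccn3 (adjusted p = 0.0487) and Bambi (adjusted p = 0.0452) were also called lower by edgeR, and both had 0 counts in both HFD Mof+/- libraries, as Sfrp4 did. With each of the 10 libraries left out in turn, Sfrp5 and Ccn3 lost their call in 8, Anxa4 and Bambi in 7, Ccn5 in 5, Spock2 in 4 and Sfrp2 in 3. Grouped by the column headings all 7 lost it, without the SD Mof+/- libraries all but Sfrp5 did, and with the replicate block Sfrp5, Spock2 and Sfrp2 kept it. Ccn5 also lost it under the length correction, and Anxa4 without the filter on low counts and without the muscle and mitochondrial genes.

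The 9 interstitial collagens, the fibres that the matricellular proteins bind, held 0 calls by edgeR's quasi-likelihood test in each of these 4 comparisons. At an unadjusted p under 0.05 there were 2 on SD, 0 on HFD, 2 for the interaction and 0 for the averaged diet, and DESeq2 called 1 on SD and 0 in the others. Their summed level was between 5202 and 6510 CPM in SD Mof+/+ and between 3303 and 7426 CPM in SD Mof+/-. On HFD it was 5149 and 5428 CPM in Mof+/+ and 1671 and 5036 CPM in Mof+/-, both of the latter lower in unscaled CPM. For the second of these, the TMM factors (0.974 against 1.07 in both Mof+/+ libraries) reverse that order.

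Other gene lists moved with the same groups. In bulk tissue, fewer cells of a type and less RNA per cell cannot be told apart. The 15 immediate-early genes, which are known to rise during tissue handling and stress, summed to between 815.8 and 1081 CPM in SD Mof+/+ and between 1621 and 4051 CPM in SD Mof+/-, and 8 of the 14 tested were called higher in SD Mof+/-. On HFD their sums were 820.9 and 990.2 CPM in Mof+/+ and 507.5 and 488.5 CPM in Mof+/-. There none of the 14 was called by edgeR's quasi-likelihood test, 0 were at an unadjusted p under 0.05 and 0 were called by DESeq2, and the median log2 difference was -0.64, beside -0.24 over all genes. The median change of its genotype difference from SD to HFD was -2.46 on the log2 scale, beside -2.53 over the 10 genes and -0.41 over all genes, with 0 called by edgeR (10 at an unadjusted p under 0.05, 7 by DESeq2). The 6 mesothelial markers summed to between 23.8 and 59.1 CPM in SD Mof+/+ and between 170 and 349 CPM in SD Mof+/-, with 4 of 6 called higher. On HFD their sums were 84.2 and 35.7 CPM in Mof+/+ and 141.7 and 0.904 CPM in Mof+/-. Their median change of the genotype difference from SD to HFD was -3.43 on the log2 scale, with 6 of 6 below 0.

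The 10 fibroblast and progenitor markers summed to between 2426 and 3354 CPM in SD Mof+/+ and between 3230 and 5566 CPM in SD Mof+/-, with 4 called higher and 1 lower. On HFD they summed to 2488 and 2611 CPM in Mof+/+ and to 1105 and 3325 CPM in Mof+/-, the last of these from the library in which Fbln1 was at 10.8 and Sfrp4 at 0 CPM. The 6 endothelial markers summed to between 1003 and 2542 CPM in SD Mof+/+ and between 160 and 231 CPM in SD Mof+/-, with 5 of 6 called lower. On HFD their sums were 456 and 357 CPM in Mof+/+ and 203 and 339 CPM in Mof+/-. The median change of their genotype difference from SD to HFD was 2.23, with 6 of 6 above 0. The 6 macrophage markers summed to 3879 and 4908 CPM in HFD Mof+/+, the group in which Anxa1 was highest, and to between 873 and 1963 CPM in the other libraries. The 6 adipocyte markers summed to between 7585 and 11546 CPM in SD Mof+/+ and between 15712 and 19992 CPM in SD Mof+/-, with 3 of 6 called higher, and to 14009 and 10603 CPM in HFD Mof+/+ and 4138 and 14866 CPM in HFD Mof+/-. The 6 mural cell markers summed to between 654 and 1078 CPM in SD Mof+/+ and to 350, 2992 and 6091 CPM in SD Mof+/-, with 1 of 6 called lower, and to between 344 and 674 CPM on HFD. Their median genotype difference was 2.56 on SD, and it changed by -2.60 from SD to HFD. The part of these lists in the levels of the 10 genes was not tested.

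**Figure D5:**
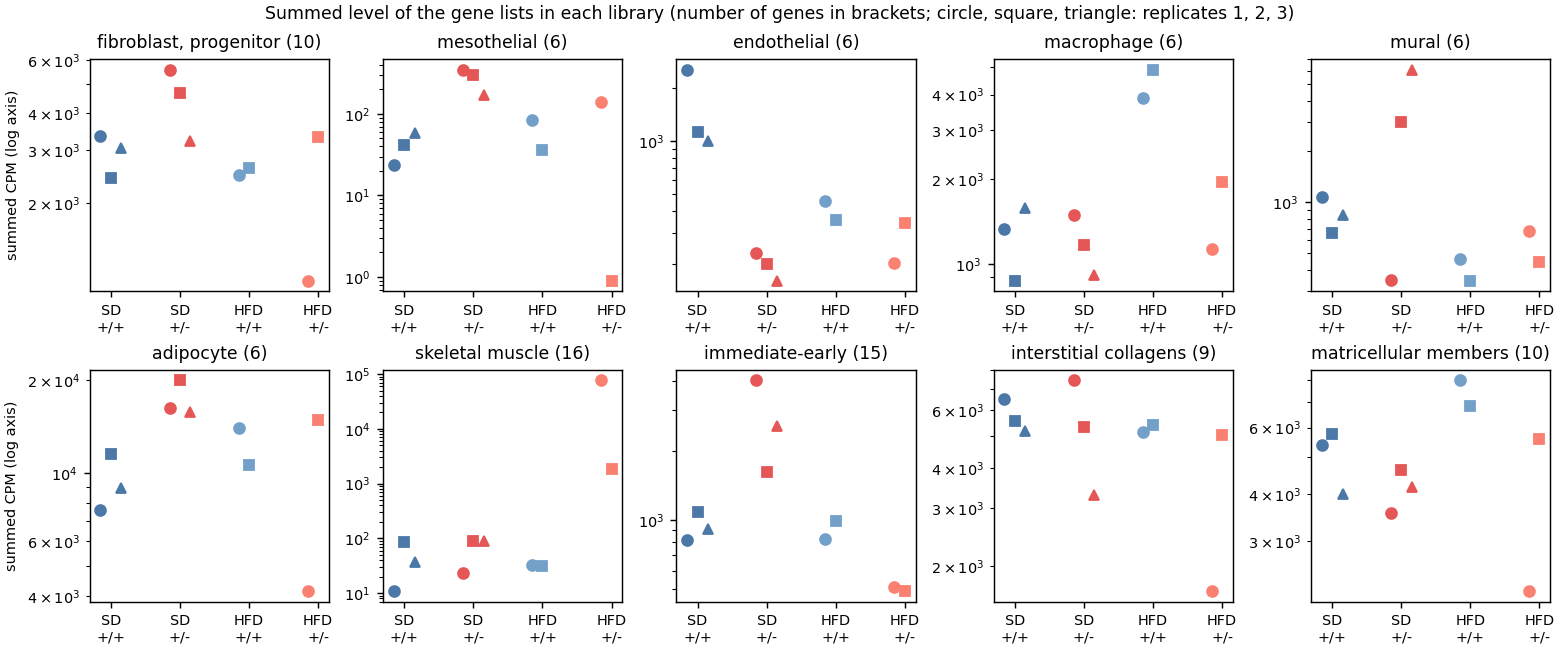
Summed CPM, on a log axis with its own range in each panel, of 10 gene lists in the 10 libraries; points are libraries. Immediate-early, mesothelial and adipocyte sums are higher and endothelial sums lower in SD Mof+/- than in SD Mof+/+, macrophage sums are highest in HFD Mof+/+, and muscle sums are high in both HFD Mof+/- libraries.

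The members of the set lie between 2861 and 8702 bases in exon length, and the genes of that span had a median genotype difference of -0.21 on SD, beside 0.57 for shorter genes, and of -0.30 on HFD, beside 0.03 for shorter genes. A correction for the trend with length in each library left the sign of every genotype difference of the 10 genes as it was. On SD it moved Postn to 1.92 and Anxa1 to 0.77, and it lowered the number of all genes called from 727 to 303. On HFD it left Thbs1 at -0.90, Postn at -1.30, Fbln1 at -1.58 and Anxa1 at -1.67. Leaving out the library labelled HFD Mof+/- replicate 1 changed the sign of Sparc on HFD to 0.06 and of no other of the 10 genes.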

How the data were processed

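Visceral WAT mRNA-seq libraries were compared as deposited. The authors mapped reads to GRCm38 with STAR and counted them per gene with featureCounts (Subread 1.5.0-p1), and deposited raw counts without normalization. The annotation release is not given in the sources used here. Symbols, positions and exon lengths came from GENCODE M21 by identifier without version (47224 of 47937 matched).

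Groups followed the sample labels. Genes were tested with edgeR 4.0.16 in R 4.3.3 (TMM, filterByExpr, quasi-likelihood, Benjamini-Hochberg adjustment, threshold 0.05), on the groups compared, or on all 10 libraries for the interaction and the averaged diet effect. CPM used all counts of a library. A count of 0 was read against a floor of 3 counts, which covers counting error only. Promoters came from RefSeq. Members and lists were chosen with earlier results of these data known. All 10 members are given in every library, relatives where called (up to 4 per list and direction), and the 5 most alike genes averaging 50 counts or more. The values of 1 called relative are not reported here, and counts over lists cover the whole lists.

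Alternatives were DESeq2 1.42.0, its size factors, no filter, a replicate block, a length correction, the grouping by column headings, no muscle and mitochondrial genes, 1 fit of all libraries, and each library left out. The length correction was revised after its first results had been seen, because it had also rescaled the smallest library. The revised one keeps the TMM scaling and removes only the trend over genes averaging 50 counts or more. The fits and this correction were tested on simulated data.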

Additional observations from a re-analysis of the deposited data

Results flagged for a closer look

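By the sample labels, Thbs1, Postn, Sfrp4, Fbln1 and Anxa1 were higher in every Mof+/- library than in every Mof+/+ library on SD. On HFD they were lower in every Mof+/- library than in every Mof+/+ library. This combination was met by 2.70% of the genes tested on both diets. Kat8 went against the label in the library labelled SD Mof+/- replicate 2. Grouped by the column headings, the SD differences of these genes were between 0.41 (Anxa1) and 1.03 (Thbs1), and the genotypes overlapped on SD for most of the 10 genes. The log2 difference between the genotypes changed from SD to HFD by -3.43 for Thbs1, -3.10 for Postn, -4.06 for Fbln1, -2.72 for Anxa1 and at most -6.70 for Sfrp4 in CPM. No test of these differences is given, since the genes were chosen on them. On SD they fall together with the presence of Xist and the absence of Y-linked counts, and on HFD with muscle genes in both Mof+/- libraries.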

How the results depend on the processing

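Over all alternatives run, the 10 genes kept the sign of their difference in 140 of 140 values for genotype on SD, 109 of 110 on HFD, 165 of 170 for the interaction, 172 of 180 for the averaged diet, 126 of 130 for diet in Mof+/+ and 128 of 130 for diet in Mof+/-. The genes were chosen on their genotype differences, and the alternatives refit the same libraries or parts of them. These tallies are therefore no independent check. Under the column headings the Mof+/+ diet sign turned for Sfrp4 (-1.46), Thbs2 (-0.70) and Fbln1 (-1.12). A kept sign does not mean a kept size: grouped by column headings, the SD value of Sfrp4 was 0.72 in place of 4.47 and that of Thbs2 0.74 in place of 2.94. Counts of called genes moved much more, and the cause was not tested. DESeq2 called 2209 genes on SD (21 relatives), 209 on HFD (1), 483 for the interaction (9) and 1452 for the averaged diet (17). Without the filter the counts were 1840 (14) on SD, 380 (9) for the interaction and 1025 (17) for diet. The length correction called 303 genes on SD. With all 10 libraries in 1 fit there were 194 genes and 2 relatives on SD and 1 gene on HFD. With the third SD libraries grouped by column headings, 0 genes and 0 relatives were called on SD and 0 genes for the interaction. For diet, 87 genes, 0 relatives and 0 of the 10 genes were called. In that grouping 1 of the 10 genes did not overlap between the genotypes on SD, and the share over all genes is not given.

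Without the SD Mof+/- libraries, an alternative chosen after seeing the data, 1 relative and 1 of the 10 genes were called for diet. That comparison also carries part of the genotype difference on HFD, and the sign was the opposite for Thbs1 (0.50), Thbs2 (1.33), Postn (0.35), Tnc (-0.37) and Tgfbi (0.15). With each library left out in turn, calls ranged from 17 (without SD Mof+/- replicate 2) to 1026 genes and from 1 to 9 relatives on SD. The ranges were 92 to 7551 genes and 0 to 57 relatives on HFD, 4 to 3163 genes and 0 to 30 relatives for the interaction, and 57 to 3529 genes and 0 to 30 relatives for diet. The highest count in these 3 came without the library labelled HFD Mof+/- replicate 2, when the library with 1044355 counts stands alone and is assumed to vary like the other groups. The averaged diet difference ranged from -0.46 to 0.18 for Tgfbi and from -0.13 to 0.60 for Sparc.

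Same-numbered libraries did not deviate together (correlations from -0.14 to 0.09 over 13 pairs). Deviations were taken from group means, so those of a group of 2 libraries mirror each other and the pairs are not separate checks. Whether same-numbered libraries share a litter or batch cannot be told from them. With a replicate block 428 genes were called on SD, 200 genes and 2 relatives on HFD, and 183 genes and 3 relatives for diet, and the 10 genes held 3 calls for diet as before.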
